A study of Mus musculus with 6 samples.

Results

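Squamous and cornification genes are the keratins, desmosomal proteins, envelope proteins and crosslinking enzymes that stratified epithelia use to build a tough, layered surface. The 35 genes described here were chosen by name, with earlier results of these data known and the small proline-rich Sprr genes left out. All 35 were found among the 18708 rows of the deposited table. RNA came from the corpus, the acid-secreting main body of the stomach, of 6 C57BL/6 mice at 6 months of age, with 1 library per mouse. In 3 mice RUNX3, a Runt-family transcription factor, carried the R122C amino acid change (R122C), and 3 mice were wild type (WT). The labels do not state zygosity, sex or how the allele was made. Every value is a level in FPKM (fragments scaled to transcript length and library size), as computed by the authors, and values of 3 libraries are given in the order 1, 2 and 3.

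Stratified squamous epithelium renews itself from a basal layer that holds the keratin pair Krt5 and Krt14 and the transcription factor Trp63 (p63). Cells that leave this layer switch to other keratin pairs, Krt1 with Krt10 in epidermis and Krt4 with Krt13 in internal surfaces, and then deposit involucrin, loricrin and related proteins under the membrane, where transglutaminases crosslink them. In the mouse this kind of epithelium covers the skin, the oesophagus and the forestomach, whereas the corpus is lined by a simple glandular epithelium with the keratins Krt8, Krt18 and Krt19. R122C mice were set against WT mice to see whether these genes differ with the RUNX3 genotype.

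Many of the genes lie in clusters (GRCm38 coordinates, from GENCODE M21). The 6 type I keratins lie on chromosome 11 between 99385254 and 100261029, and the 6 type II keratins on chromosome 15 between 101676023 and 101954287, all on the minus strand. Ivl, Lor, Rptn and Crct1 belong to the epidermal differentiation complex on chromosome 3, between 92080271 and 93399442. Sbsn, Dmkn and Krtdap stand side by side on the plus strand of chromosome 7, within 39.6 kb (30751471 to 30791097).

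Promoters of genes that were high together in 1 library are given here, 250 bases before to 50 bases after the outermost RefSeq start (GRCm38.p6), with the pattern TGANTCA in capitals. TGACTCA and its reverse complement TGAGTCA are the classical recognition sequence of AP-1 (Fos and Jun), a factor known in keratinocyte differentiation. Krt13 is an internal suprabasal keratin, Lor and Krtdap are late differentiation genes, and Krt5 is basal.
Krt13, chr11:100121517-100121816, minus strand: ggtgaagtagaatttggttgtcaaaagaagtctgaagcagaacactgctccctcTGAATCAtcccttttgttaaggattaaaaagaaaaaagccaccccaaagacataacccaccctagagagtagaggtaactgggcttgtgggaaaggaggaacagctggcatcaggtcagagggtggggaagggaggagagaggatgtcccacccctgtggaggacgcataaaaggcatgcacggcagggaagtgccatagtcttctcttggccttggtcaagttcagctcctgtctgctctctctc
Lor, chr3:92083093-92083392, minus strand: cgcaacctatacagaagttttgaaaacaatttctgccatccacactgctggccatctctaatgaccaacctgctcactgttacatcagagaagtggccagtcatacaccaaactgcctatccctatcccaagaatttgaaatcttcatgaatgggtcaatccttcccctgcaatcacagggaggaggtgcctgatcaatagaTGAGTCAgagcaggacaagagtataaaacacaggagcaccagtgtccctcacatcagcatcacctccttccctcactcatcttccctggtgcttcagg
Krtdap, chr7:30787655-30787954, plus strand: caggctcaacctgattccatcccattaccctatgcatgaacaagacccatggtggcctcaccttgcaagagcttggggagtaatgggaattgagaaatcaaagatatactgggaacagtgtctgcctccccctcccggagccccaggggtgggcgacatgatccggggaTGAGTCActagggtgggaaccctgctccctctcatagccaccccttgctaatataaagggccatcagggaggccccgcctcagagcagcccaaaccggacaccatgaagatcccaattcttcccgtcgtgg
Krt5, chr15:101712856-101713155, minus strand: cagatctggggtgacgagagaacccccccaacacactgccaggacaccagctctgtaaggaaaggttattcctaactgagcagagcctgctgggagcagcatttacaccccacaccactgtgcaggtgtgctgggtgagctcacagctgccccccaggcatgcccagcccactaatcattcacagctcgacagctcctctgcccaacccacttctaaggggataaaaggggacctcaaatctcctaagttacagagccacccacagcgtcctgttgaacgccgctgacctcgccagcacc

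Of the 35 genes, 18 matched a promoter in the RefSeq table by symbol. On either strand, TGACTCA was present in a promoter of 6 of these 18 (Krt13, Ivl, Lor, Krtdap, Sbsn and Dmkn), against 5.95% of 27025 genes. In Krt13 it stands in a second listed promoter, and the printed one holds TGAATCA. The wider pattern TGANTCA, which includes TGACTCA, was present in 8 of the 18, against 8.97% of all genes. The TATA box TATAAA was present in 6, against 15.7%. The RUNX sequences TGTGGT and TGCGGT were present in 1 (Serpinb5) and in 0, against 18.9% and 7.34%. The other patterns searched were the p63 core CATGTC (4 of 18, against 11.6%), the GC box GGGCGG (5, against 38.2%), the CACC box CACCC (15, against 59.8%), CCAAT (7, against 41.1%) and the Grainyhead-like site AACCGGTT (0, against 0.174%). These are matches of letters in a window of 300 bases, without a test.

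The libraries differed before any gene was singled out. R122C 3 correlated with the other 2 R122C libraries at 0.924 and 0.944 on the log2 scale across genes, whereas R122C 1 and R122C 2 correlated at 0.976, and the WT libraries at 0.962 to 0.977. Spacing of low values gave about 31100000 to 47300000 fragments in 5 libraries, with no stable estimate for R122C 2. Parietal and chief cell transcripts, which define the corpus, were present in every library. The 11 parietal markers in the table summed to 5743, 4398 and 1086 FPKM in R122C and to 9629, 4793 and 7108 FPKM in WT, with none at 0 throughout. That list counts Gif, whose cell of origin was not checked here. Gif was at 609, 334 and 167 FPKM in R122C and at 1270, 358 and 352 FPKM in WT. The 6 chief cell markers in the table summed to 13792, 26364 and 1598 FPKM in R122C and to 111373, 34952 and 58480 FPKM in WT. R122C 3 was the lowest library for both lists.

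**Figure D1:**
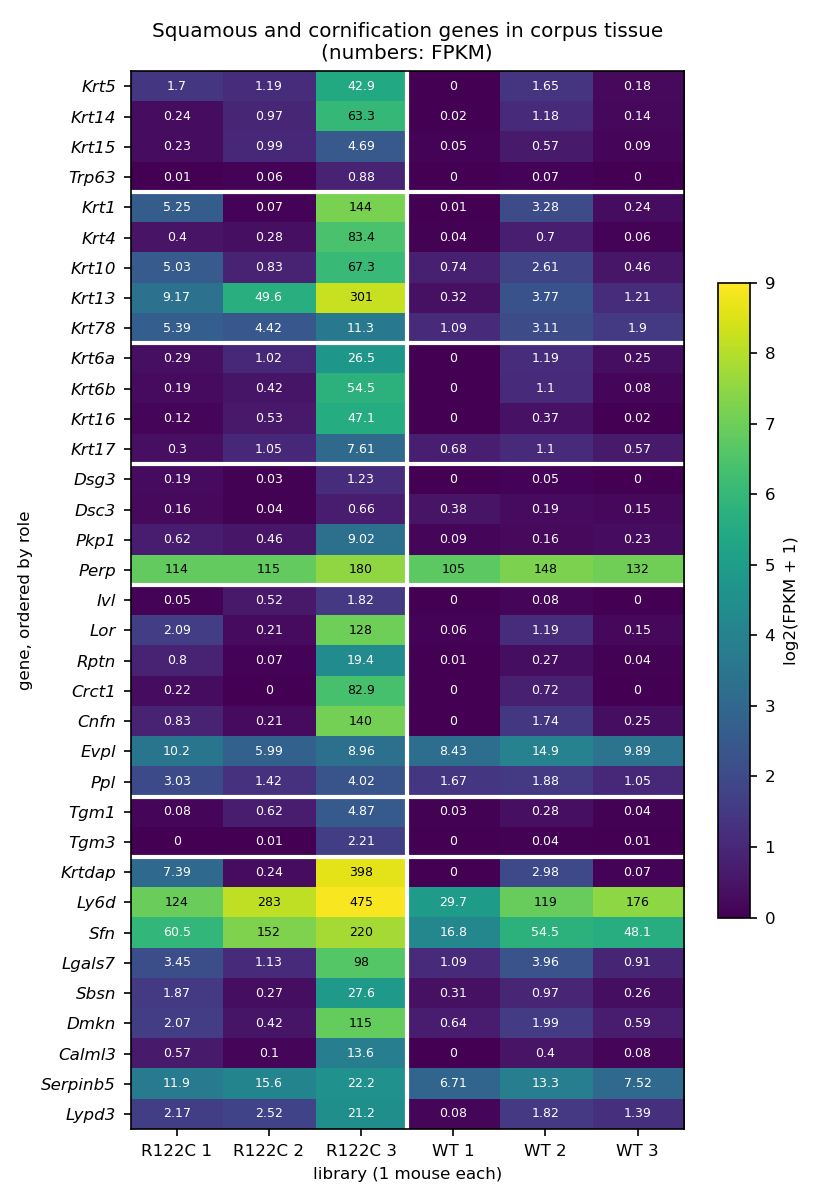
Levels of the 35 squamous and cornification genes in each library, R122C libraries left of WT libraries, with genes in rows ordered by role and white lines between roles. Color is log2(FPKM + 1) and the printed numbers are FPKM. The R122C 3 column is bright in most rows, while Perp, Ly6d, Sfn, Serpinb5 and Evpl are visible in all 6 libraries.

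The dominant pattern was 1 mouse. R122C 3 was the highest of the 6 libraries for 34 of the 35 genes, the exception being Evpl, whereas it was the highest for 13.0% of the 11422 genes tested. For 20 of the 35 it stood at least 10 times above the next highest library, which held for 0.718% of the genes tested. Because the 35 were chosen with earlier results known, these shares are a description and not a test. The genes tested averaged 1 FPKM or more, as did 29 of the 35, and 15 of these 29 only through R122C 3. The ratio of R122C 3 to the next library ran from 1.22 (Perp) to 119 (Krt4), with a median of 14.7 over the 34 genes. It was under 2 for 6 of them (Dsc3, Perp, Ppl, Ly6d, Sfn and Serpinb5). Of the 35 genes, 13 were under 1 FPKM in each of the other 5 libraries, and 12 were listed at 0 in WT 1. The shares of all genes for these counts were not computed. The summed level of the 35 was 374, 641 and 2829 FPKM in R122C, against 174, 389 and 383 FPKM in WT. Ly6d, Perp and Sfn made up most of that sum outside R122C 3. Without these 3, a choice made after their values were seen, the sum was 76.1, 91.4 and 1953 FPKM in R122C, against 22.5, 67.6 and 27.8 FPKM in WT.

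Basal layer genes were low in every library but R122C 3. Krt5, the basal type II keratin, was at 1.70, 1.19 and 42.9 FPKM in R122C and at 0, 1.65 and 0.18 FPKM in WT. Krt14, its type I partner, was at 0.24, 0.97 and 63.3 FPKM in R122C and at 0.02, 1.18 and 0.14 FPKM in WT. R122C 3 was 25.2 times above the next library for Krt5. The other 2 R122C libraries lay close to WT 2 for Krt5, and below it for Krt14. Krt15, a basal keratin of the type I cluster, was at 0.23, 0.99 and 4.69 FPKM in R122C and at 0.05, 0.57 and 0.09 FPKM in WT. Trp63, the regulator of the basal program, stayed under 1 FPKM everywhere, at 0.88 FPKM in R122C 3 and at or under 0.07 FPKM in the other 5 libraries. Over the genes of this layer the sum was 2.18, 3.21 and 112 FPKM in R122C, against 0.07, 3.47 and 0.41 FPKM in WT.

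Krt13 was the only one of the 35 genes past the threshold. Krt13, the type I keratin of internal stratified epithelia (chromosome 11, 100117327 to 100121566, minus strand), was at 9.17, 49.6 and 301 FPKM in R122C, against 0.32, 3.77 and 1.21 FPKM in WT. Every R122C library lay above every WT library, and the R122C libraries differed from each other by far more than the WT libraries did. The means were 120 ± 158 FPKM in R122C and 1.77 ± 1.79 FPKM in WT (SD, n = 3 each). The log2 fold change was 4.48 ± 1.05 (SE) on the log2(FPKM + 1) scale, with a limma adjusted p of 0.043 over 11422 genes. Without R122C 3 it was 3.24 ± 0.65 with an adjusted p of 0.0187, and the call held there. The adjusted p was 0.122 without R122C 2, 0.112 without WT 1, 0.0915 without WT 2 and 0.11 without WT 3, and over the 17 alternatives it ran from 0.00767 to 0.158, with 8 of the 17 under 0.05.

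Krt4, the usual type II partner of Krt13, did not follow it outside R122C 3. Krt4 was at 0.40, 0.28 and 83.4 FPKM in R122C and at 0.04, 0.70 and 0.06 FPKM in WT. R122C 1 and R122C 2 lay below WT 2 for Krt4 and above it for Krt13. The level of Krt4 over that of Krt13 was 0.0436, 0.00564 and 0.277 in R122C and 0.186 in WT 2, and was not formed for WT 1 and WT 3, where Krt4 was under 0.1 FPKM. Its log2 fold change was 2.11 ± 1.39 (SE), with an adjusted limma p of 0.457.

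The epidermal pair showed another order of libraries. Krt1 was at 5.25, 0.07 and 144 FPKM in R122C and at 0.01, 3.28 and 0.24 FPKM in WT. Krt10 was at 5.03, 0.83 and 67.4 FPKM in R122C and at 0.74, 2.61 and 0.46 FPKM in WT. For both genes R122C 3 stood highest, R122C 1 and WT 2 came next, and R122C 2 was among the lower libraries. Krt1 over Krt10 was 1.04 in R122C 1, 2.14 in R122C 3, 1.26 in WT 2 and 0.522 in WT 3. Krt78, a type II keratin of stratified epithelia, was at 5.39, 4.42 and 11.3 FPKM in R122C and at 1.09, 3.11 and 1.90 FPKM in WT. Its groups did not overlap, and its log2 fold change of 1.37 ± 0.36 (SE) did not pass (limma adjusted p = 0.0654, and 0.0931 without R122C 3).

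Keratins induced by wounding were high in R122C 3 alone. Krt6a was at 0.29, 1.02 and 26.5 FPKM in R122C and at 0, 1.19 and 0.25 FPKM in WT, and Krt6b at 0.19, 0.42 and 54.5 FPKM in R122C and at 0, 1.10 and 0.08 FPKM in WT. Krt6a and Krt6b resemble each other. Of all 75-base stretches of their annotated transcripts, 38.6% of Krt6a and 39.6% of Krt6b also occur in another gene, so the split between the 2 is uncertain. Krt16, their type I partner, was at 0.12, 0.53 and 47.1 FPKM in R122C and at 0, 0.37 and 0.02 FPKM in WT, and shares 28.9% of its stretches with Gm11597 or Krt14. Krt17, induced by stress, was at 0.30, 1.05 and 7.61 FPKM in R122C and at 0.68, 1.10 and 0.57 FPKM in WT. R122C 1 and R122C 2 lay below WT 2 for Krt6a, Krt6b and Krt17.

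**Figure D2:**
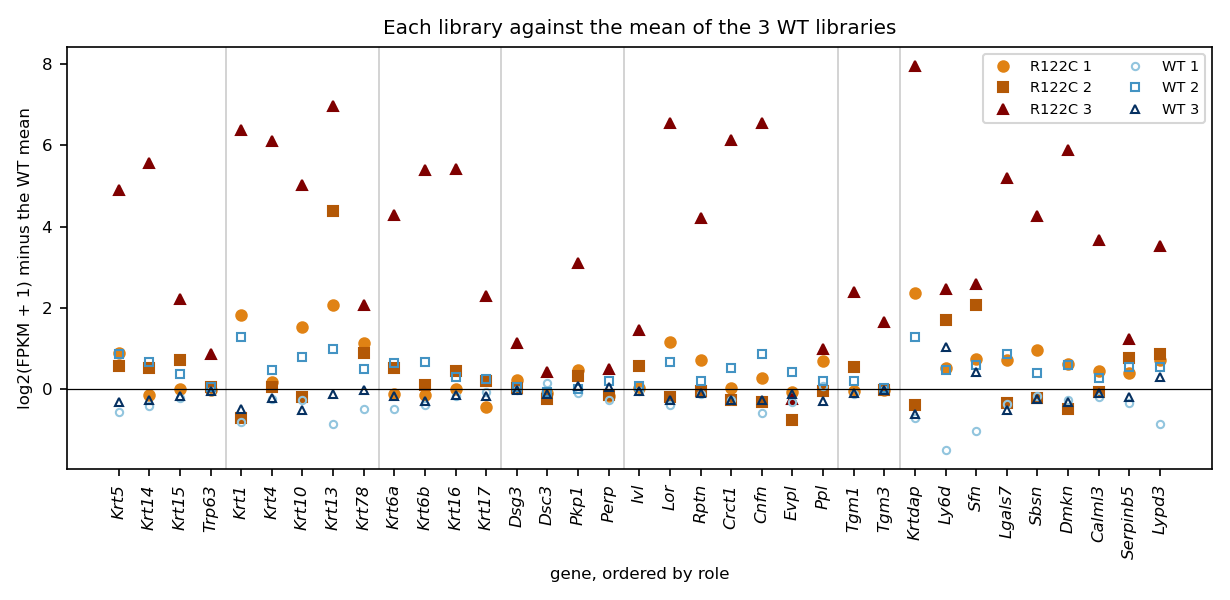
Difference of each library from the mean of the 3 WT libraries on the log2(FPKM + 1) scale (y axis) for the 35 genes (x axis, ordered by role), with filled symbols for R122C and open symbols for WT. The dark triangles of R122C 3 stand apart for most genes. R122C 2 stands farthest from the WT mean for Krt13, by 4.40, followed by Sfn at 2.07 and Ly6d at 1.71.

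Desmosomal genes differed in level and in how far R122C 3 stood apart. Perp, a tetraspan desmosomal protein of many epithelia, was at 114, 115 and 180 FPKM in R122C and at 105, 148 and 132 FPKM in WT, and its log2 fold change was 0.07 ± 0.24 (SE), with an adjusted limma p of 0.921. The sign for Perp is negative with median-of-ratios scaling, with quantile normalization, without R122C 3 and without WT 1. Pkp1, a plakophilin of stratified epithelia, was at 0.62, 0.46 and 9.02 FPKM in R122C and at 0.09, 0.16 and 0.23 FPKM in WT, with no overlap between the groups, and did not pass (log2 fold change 1.31 ± 0.65 (SE), limma adjusted p = 0.315). The stratified cadherins were scarce. Dsg3 was at 1.23 FPKM in R122C 3 and at or under 0.19 FPKM in the other 5 libraries. Dsc3 was at 0.66 FPKM in R122C 3 and between 0.04 and 0.38 FPKM elsewhere.

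Among precursors of the cornified envelope, the late genes were a feature of R122C 3 and the plakins of every library. Lor, encoding loricrin, the main envelope protein of epidermis, was at 2.09, 0.21 and 128 FPKM in R122C and at 0.06, 1.19 and 0.15 FPKM in WT. Cnfn, encoding cornifelin, was at 0.83, 0.21 and 140 FPKM in R122C and at 0, 1.74 and 0.25 FPKM in WT. Crct1, a cysteine-rich late envelope gene, was at 0.22, 0 and 82.9 FPKM in R122C and at 0, 0.72 and 0 FPKM in WT. R122C 3 was 61.2, 80.2 and 115 times above the next library for Lor, Cnfn and Crct1, and in R122C 2 all of them lay below WT 2. Rptn, encoding the matrix protein repetin, was at 0.80, 0.07 and 19.4 FPKM in R122C and at 0.01, 0.27 and 0.04 FPKM in WT. Ivl, encoding involucrin, an early envelope precursor, was far lower, at 0.05, 0.52 and 1.82 FPKM in R122C and at 0, 0.08 and 0 FPKM in WT. Evpl and Ppl, encoding the plakins envoplakin and periplakin, which tie keratins to the envelope, were unlike the others. Evpl was at 10.2, 5.99 and 8.96 FPKM in R122C and at 8.43, 14.9 and 9.89 FPKM in WT, the only gene of the 35 with a log2 fold change below 0 (-0.35 ± 0.26 (SE), limma adjusted p = 0.516). Ppl was at 3.03, 1.42 and 4.02 FPKM in R122C and at 1.67, 1.88 and 1.05 FPKM in WT.

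The crosslinking enzymes were scarce. Tgm1, the membrane-bound transglutaminase of keratinocytes, was at 0.08, 0.62 and 4.87 FPKM in R122C and at 0.03, 0.28 and 0.04 FPKM in WT. Tgm3, another envelope transglutaminase, was at 2.21 FPKM in R122C 3 and at or under 0.04 FPKM in the other 5 libraries. Their summed level in R122C 3 was 7.08 FPKM, against 385 FPKM for the 7 envelope precursors in the same library.

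Ly6d and Sfn were abundant in all 6 libraries, and neither passed. Sfn, encoding the 14-3-3 sigma protein that responds to p53, was at 60.5, 152 and 220 FPKM in R122C and at 16.8, 54.5 and 48.1 FPKM in WT. Each R122C library lay above each WT library, and the log2 fold change of 1.81 ± 0.54 (SE) did not pass (limma adjusted p = 0.0976, and 0.148 without R122C 3). Ly6d, a surface protein of stratified epithelia and of lymphoid progenitors, was at 124, 283 and 475 FPKM in R122C and at 29.7, 119 and 176 FPKM in WT. R122C 1 lay below WT 3, so the groups overlapped, and the log2 fold change was 1.56 ± 0.67 (SE, adjusted p = 0.239). Serpinb5, the serpin maspin, was at 12.0, 15.6 and 22.2 FPKM in R122C and at 6.71, 13.3 and 7.52 FPKM in WT (0.80 ± 0.30 (SE), adjusted p = 0.175). Lypd3, a surface protein of suprabasal cells, was at 2.17, 2.52 and 21.2 FPKM in R122C and at 0.08, 1.82 and 1.39 FPKM in WT. Its groups did not overlap and it did not pass (adjusted p = 0.23). Of its exons 13.6% overlap Gm26550 on the opposite strand, and the sources used here do not say whether the counting used strand.

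Krtdap and its neighbours were also highest in R122C 3. Krtdap, a secreted factor of keratinocyte differentiation, was at 7.39, 0.24 and 398 FPKM in R122C and at 0, 2.98 and 0.07 FPKM in WT. Dmkn, encoding dermokine, was at 2.07, 0.42 and 115 FPKM in R122C and at 0.64, 1.99 and 0.59 FPKM in WT. Sbsn, encoding suprabasin, was at 1.87, 0.27 and 27.6 FPKM in R122C and at 0.31, 0.97 and 0.26 FPKM in WT. For these neighbours on chromosome 7 the order of the top libraries was R122C 3, R122C 1 and WT 2. Lgals7, encoding galectin-7, was at 3.45, 1.13 and 98.0 FPKM in R122C and at 1.09, 3.96 and 0.91 FPKM in WT. Calml3, a calmodulin-like protein of epithelia, was at 0.57, 0.10 and 13.6 FPKM in R122C and at 0, 0.40 and 0.08 FPKM in WT. R122C 1 lay below WT 2 for Lgals7 and above it for Calml3.

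Over the whole table, 602 of 11422 genes (5.27%) were higher in R122C and 95 (0.832%) lower. Of the 35 genes 29 averaged 1 FPKM or more and entered this fit, and 1 of them (Krt13) was higher and 0 lower, a share near that of all genes. At an unadjusted limma p under 0.05, 6 of the 29 (20.7%) differed, all of them higher, beside 20.1% of all genes, of which 15.3% were higher and 4.88% lower. For 15 of the 29 the mean of the other 5 libraries was under 1 FPKM, so they entered the fit through R122C 3. Left out were Trp63, Dsg3, Dsc3, Ivl, Tgm1 and Tgm3. In a fit with no filter, 0 of all 35 passed and 2.28% of 18708 rows were called higher. At an unadjusted limma p under 0.05 that fit had 4 of the 35 (11.4%), beside 18.0% of all rows. The median log2 fold change in that fit was 1.63 over the 35 genes and 0.03 over all rows. With R122C 3 left out as well it was 0.25 and 0.08. In that last fit 0 of the 35 passed in either direction, with 0.331% of all rows called higher and 0.00535% lower. An unadjusted limma p under 0.05 was found there for 3 of the 35 (8.57%), beside 16.9% of all rows.

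With R122C 3 set apart, 14 of the 35 genes averaged 1 FPKM or more in the other 5 libraries. Of these, 1 (Krt13) was higher and 0 lower, where 5.13% of 11329 genes were higher and 0.777% lower, and 3 of the 14 (21.4%) had an unadjusted limma p under 0.05, beside 20.1% of all genes. R122C 1 lay above every WT library for 16 of the 35 genes (45.7%), against 55.8% of the genes tested. R122C 2 did so for 11 (31.4%), against 38.5%. R122C 3 did so for 34 (97.1%), against 29.3%. All 3 R122C libraries lay above all WT libraries for 5 of the 35 (14.3%, Krt13, Krt78, Pkp1, Sfn and Lypd3), against 20.3% of the genes tested. For 0 of the 35 all 3 lay below, against 5.19%. In these shares by library the genes tested averaged 1 FPKM or more over the 6 libraries, whereas 6 of the 35 did not. Pkp1 did so only through R122C 3. Of the 35 genes the median difference from the WT mean was 0.40, 0.05 and 3.66 on the log2 scale in R122C 1, R122C 2 and R122C 3, beside 0.28, 0.10 and -0.09 for all genes tested.

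R122C 1 and R122C 2, 1 mouse each, differed in level in both directions. Y-linked transcripts (Ddx3y, Eif2s3y, Kdm5d and Uty, summed) reached 1 FPKM in R122C 2 and WT 3 and in no other library. Differences of R122C 2 from the other R122C libraries therefore cannot be told apart from differences that go with these transcripts. The same holds for WT 3 among the WT libraries. R122C 1 and R122C 3 did not differ in this respect, nor did WT 1 and WT 2. The genes at 1 FPKM or more in R122C 1 and at least 2 times their level in R122C 2 were 8, namely Krt1, Krt10, Lor, Ppl, Krtdap, Lgals7, Sbsn and Dmkn. In the other direction there were 5, namely Krt13, Krt6a, Krt17, Ly6d and Sfn. A further 6 were within 2 times of each other, and 16 were under 1 FPKM in both. For these counts the shares of all genes were not computed, and R122C 2 had no stable depth estimate. Among WT mice, WT 2 was the highest library for 32 of the 35 genes, against 22.1% of the genes tested, the exceptions being Dsc3, Pkp1 and Ly6d. WT 1 was the lowest WT library for 24, against 21.0%. Krt1, Krt10, Krtdap and Lgals7 were at 3.45 to 7.39 FPKM in R122C 1 and at 2.61 to 3.96 FPKM in WT 2.

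**Figure D3:**
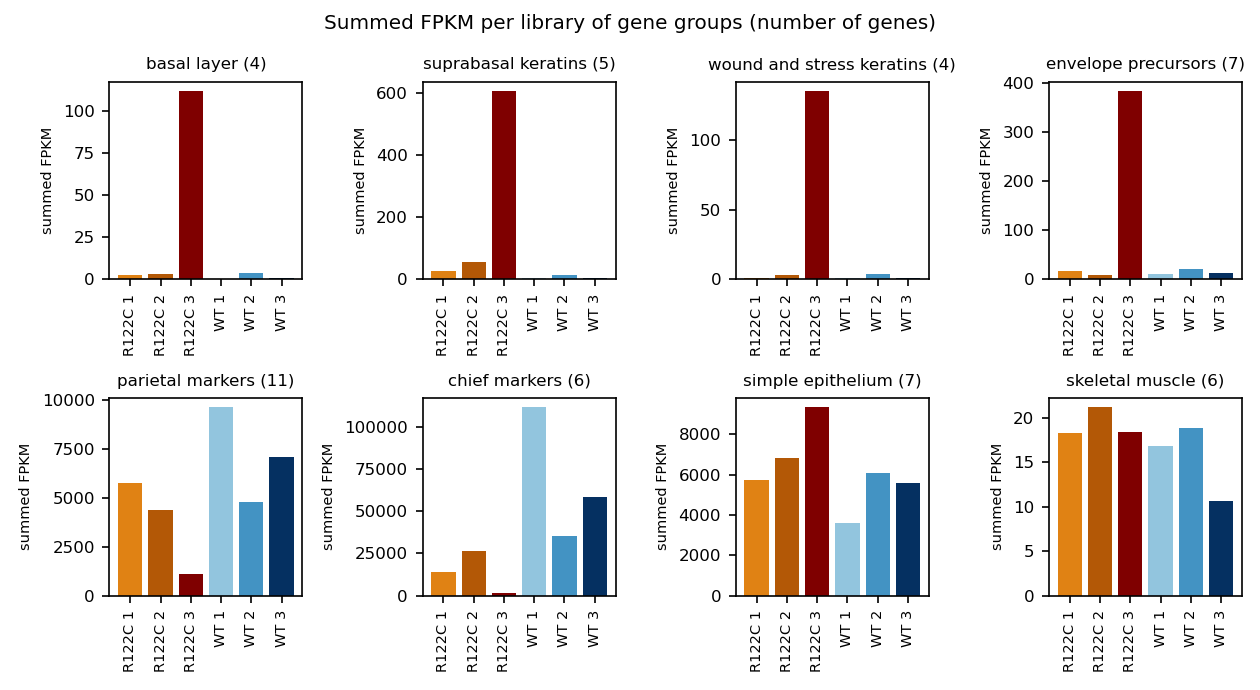
Summed FPKM per library (bars from 0, one bar per library, R122C left of WT) for 4 role groups of the squamous genes in the upper row and for marker lists of other cell types in the lower row. The upper bars are tall in R122C 3, at 112, 607, 136 and 385 FPKM, and the parietal and chief bars are shortest in the same library.

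Markers of other cell types moved with these levels in part. As given above, the parietal and chief sums were lowest in R122C 3, where Atp4a, the proton pump subunit, was at 326 FPKM against 1962 to 3617 FPKM in WT, and Pgc, a pepsinogen gene, at 1537 FPKM against 30428 to 97962 FPKM in WT. Atp4b, the other pump subunit, was at 529 FPKM in R122C 3, against 2156 to 4254 FPKM in WT. Pga5, another pepsinogen gene, was at 45.1 FPKM in R122C 3, within the WT range of 26.3 to 75.2 FPKM. Pan-leukocyte markers (5 of 5 in the table, none at 0 throughout) summed to 24.7 to 48.3 FPKM in R122C, highest in R122C 3, and to 6.20 to 13.7 FPKM in WT, with Ptprc at or under 1.98 and Cd52 at or under 24.9 FPKM in any library. Mucous neck markers (4 of 4) summed to 17666 to 25776 FPKM in R122C and 3216 to 4958 FPKM in WT, with Muc6 at 537 to 1028 FPKM in R122C and 11.6 to 60.9 FPKM in WT, and Tff2 at 15115 to 20656 FPKM in R122C and 3096 to 4859 FPKM in WT. Pit cell markers (7 of 7) summed to 58000 to 85039 FPKM in R122C and 113711 to 260064 FPKM in WT, with Muc5ac at 149 to 285 FPKM in R122C and 853 to 1642 FPKM in WT, and Gkn1 lowest in R122C 3, at 6723 FPKM. The 7 simple epithelium genes summed to 5714 to 9340 FPKM in R122C, highest in R122C 3, and to 3621 to 6064 FPKM in WT, with Krt8 at 1559 FPKM or more and Krt18 at 495 FPKM or more in every library. Summed muscle markers did not set R122C 3 apart. Acta2, Smtn (25.4 FPKM) and Acta1 were highest in R122C 3, and the other listed muscle genes were not highest there alone. Smooth muscle markers (8 of 8) summed to 679, 775 and 703 FPKM in R122C and to 1063, 606 and 676 FPKM in WT, with Acta2 at 194 FPKM and Myh11 at 37.9 FPKM in R122C 3. Skeletal muscle markers (6 of 7), looked at because the oesophagus wall holds such muscle, summed to 18.3, 21.2 and 18.4 FPKM in R122C and to 16.8, 18.8 and 10.6 FPKM in WT, with Ckm at or under 5.39 and Acta1 at or under 1.31 FPKM. Tnni2, at 5.95 to 15.1 FPKM, was the largest part of these sums. The part of these cell types in the squamous levels was not tested. In bulk tissue fewer cells of a type and less RNA per cell cannot be told apart, and the values do not say where in the tissue a transcript came from.

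Genes of stratified epithelium outside the 35 were listed by role. Of 65 such genes, 62 were in the table and 39 entered the fit, of which 5 rose, 0 fell and 34 did not pass. Some that did not pass, such as Cdsn, Lce1a1, Lce3c and Asprv1, entered the fit only through R122C 3. At an unadjusted limma p under 0.05, 9 of the 39 were higher and 6 lower, beside 15.3% and 4.88% of all genes. The 5 that rose make up 12.8% of the 39, beside 5.27% of all genes, on lists chosen with earlier results of these data known. The number that rose was 6 of 34 without R122C 3, 3 without WT 3 and 2 without WT 2. The 5 genes were Anxa8, Gjb2 and Hopx of the cornification list and Pitx1 and Ehf among the regulators. Anxa8, an annexin, was at 12.9, 31.4 and 55.2 FPKM in R122C and at 0.05, 0.91 and 0.33 FPKM in WT, and its log2 fold change was 4.40 ± 0.47 (SE), with an adjusted limma p of 0.00176. Each R122C library lay above each WT library. Without R122C 3 its fold change was 3.94 (adjusted p = 0.000402).

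Gjb2, encoding the gap junction protein connexin 26, was at 2.49, 3.99 and 18.1 FPKM in R122C and at 0.07, 0.29 and 0.09 FPKM in WT (2.59 ± 0.55 (SE), limma adjusted p = 0.0297). Hopx, a homeodomain protein without DNA binding, was at 7.33, 2.88 and 9.48 FPKM in R122C and at 0.76, 0.81 and 0.55 FPKM in WT (2.03 ± 0.35 (SE), adjusted p = 0.014). For both, the lowest R122C library lay more than 3 times above the highest WT library. Pitx1, a homeobox factor, was at 34.2, 32.3 and 61.4 FPKM in R122C and at 6.42, 12.7 and 13.4 FPKM in WT (1.88 ± 0.33 (SE), adjusted p = 0.014). Ehf, an epithelial ETS factor, was at 24.8, 16.2 and 21.8 FPKM in R122C and at 10.2, 6.81 and 5.81 FPKM in WT (1.36 ± 0.25 (SE), adjusted p = 0.0159). Each of the 5 also passed without R122C 3, with adjusted p values from 0.000402 to 0.0215.

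**Figure D4:**
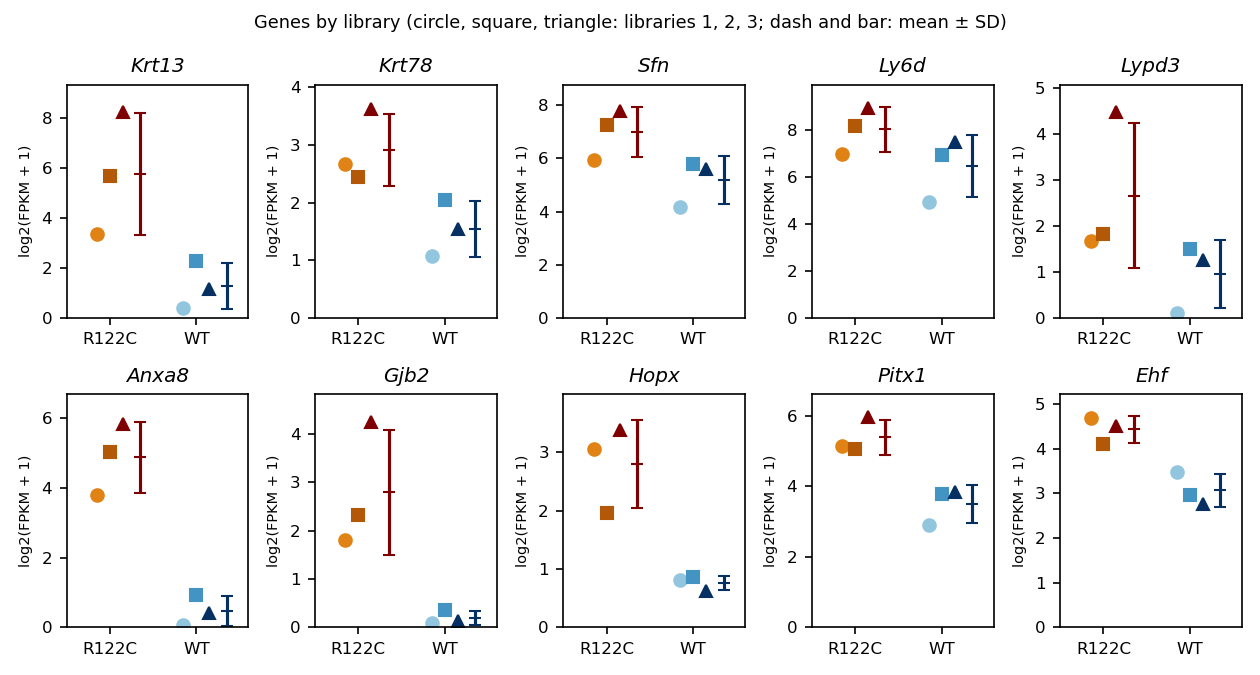
Levels on the log2(FPKM + 1) scale (y axis) in R122C left of WT, with the mean and SD beside the points. The upper row holds 5 of the 6 squamous genes with an unadjusted limma p under 0.05 (Serpinb5 not drawn). The lower row holds the 5 other stratified epithelium genes with an adjusted limma p under 0.05, a stricter choice than that of the upper row. In the lower row all R122C points lie above all WT points in each panel, and in the upper row the groups overlap for Ly6d.

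Other genes of these lists did not pass. Of 10 other desmosome genes 7 were tested and 0 passed in either direction, with 3 of the 7 at an unadjusted limma p under 0.05, all of them lower, beside 4.88% of all genes. Dsp, encoding desmoplakin, which every desmosome uses, was at 53.0, 29.4 and 32.7 FPKM in R122C and at 59.2, 67.3 and 63.8 FPKM in WT (adjusted p = 0.111). Cdsn, encoding corneodesmosin of cornified cells, was at 18.8 FPKM in R122C 3 and at or under 0.70 FPKM elsewhere. Of 8 hemidesmosome and basement membrane genes 6 were tested and 0 passed, with 1 lower at an unadjusted limma p under 0.05, beside the same 4.88%. Of 28 other cornification genes in the table, R122C 3 was the highest library for 22, beside 13.0% of all genes tested. That list was chosen with earlier results known, and 14 of the 28 were among the genes tested. The share of all genes was not computed for the next count. Of the 28, 13 reached 1 FPKM in R122C 3 while staying under 1 FPKM in each other library. Among them, Lce1a1, of the late cornified envelope family, was at 43.9 FPKM in R122C 3 and at or under 0.29 FPKM elsewhere, Lce3c at 33.7 and at or under 0.23 FPKM, and Casp14, a caspase of cornifying cells, at 5.46 and at or under 0.02 FPKM. Asprv1, a skin protease, was at 81.0 FPKM in R122C 3 and at or under 1.02 FPKM elsewhere. Dsp, Cdsn and these last 4 genes were chosen after their values were seen.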

How the data were processed

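RNA from corpus tissue of 3 R122C and 3 WT mice was sequenced, 1 library per mouse. The deposited values are FPKM computed by the authors. Per the submitters' processing notes the tools were STAR and featureCounts and the build mm10. The sources used here give no versions and no formula for FPKM. The 35 genes, the role groups and the other lists were chosen with earlier results of these data known.

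Values were tested as log2(FPKM + 1) with limma 3.58.1 in R 4.3.3 (trend, two-sided, Benjamini-Hochberg over all genes tested, threshold 0.05), on genes averaging 1 FPKM or more in the libraries fitted and with no covariate. The test was checked on simulated data with independent genes and the same spread in both groups. Those data held no outlying library such as R122C 3, so that case was not checked. The pseudocount understates changes of low genes. All 35 genes are named, those past the filter with every library, as are Ivl and Tgm1, the others by range and R122C 3. Of the other stratified epithelium lists those past the threshold are named, and of cell type lists the first 2 members. Gif, Smtn and Tnni2 were added after their values were seen.

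Depth was estimated from the spacing of low FPKM values in genes of 1 transcript, accepting estimates that differed by at most 5% between length limits of 1000 and 1500 nucleotides. These rest on the annotation. Gene positions and shared 75-base stretches came from GENCODE M21, promoters from RefSeq. Figures were drawn with matplotlib 3.10.9.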

Additional observations from a re-analysis of the deposited data

How the results depend on the processing

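Of 469 refits of single genes among the 35, 451 kept direction and side of the threshold. Perp changed sign in 4, with -0.051 under median-of-ratios scaling, -0.090 under quantile normalization, -0.15 without R122C 3 and -0.07 without WT 1, within a range of -0.15 to 0.18 when 1 library was left out. The count of genes of the 35 called higher, 1 as reported, was 0 with the covariate for Y-linked transcripts, median-of-ratios scaling, no filter, quantile normalization or robust eBayes, and 3 after rescaling to a common total. It ran from 0 to 2 when 1 library was left out. Without R122C 3 it was 1, and there it was 0 with median-of-ratios scaling, quantile normalization or no filter and 3 after rescaling to a common total. Leaving out a further library gave 0 to 1, an alternative chosen after seeing the data, as was that without a filter. Genes called lower were 0 in every setting. Over the whole table, higher and lower calls were 602 and 95 as reported. They were 392 and 57 among genes averaging 5 FPKM or more, 1259 and 76 after rescaling, 426 and 195 with median-of-ratios scaling, 424 and 255 with quantile normalization and 471 and 62 with the Y-linked covariate, and 246 to 581 and 14 to 195 without 1 library. The median change of all genes was 0.10 as reported and 0.29, -0.0031 and -0.06 under those scalings. The other stratified epithelium genes had 5 higher calls and 0 lower as reported, 3 higher among genes averaging 5 FPKM or more or with median-of-ratios scaling, 2 with no filter, 1 lower with quantile normalization, and 2 to 6 higher and 0 to 1 lower without 1 library. For these moves the cause was not tested.

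The labels do not state that mice with the same replicate number were paired, and the main fit did not pair them. Whether the numbers mark a pair or a batch cannot be told from the values below. Deviations of same-numbered libraries correlated at 0.467, 0.0174 and 0.365 in pairs 1, 2 and 3. With a replicate block 3 of the 35 genes were higher (Krt13, Ly6d and Sfn), 1119 genes were higher and 259 lower over the table, and 9 of the other stratified epithelium genes were higher and 1 lower. R122C 2 correlated best with WT 1, at 0.0962, and the others with their own number. No stable depth was found for R122C 2, and 13 of the 35 genes were under 1 FPKM in each library but R122C 3, so small differences among those libraries are uncertain for these 13.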
